A study of Mus musculus with 66 samples.

Results

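Cultured mouse myoblasts carrying a GFP-tagged histone H3 variant of the H3.3 type were compared, in growth medium, with myoblasts carrying a tagged variant of the H3.1/H3.2 type. The members are 9 mRNA-Seq libraries of the 66 samples in the series, chosen by the variant and the culture state in their titles. Named by their variant, the 6 H3.3-type lines are H3.3 and H3mm7, with H3mm11, H3mm12, H3mm13 and H3mm16 beside them, and the H3.1/H3.2-type lines are H3.1, H3.2 and H3t. The study sorted mouse H3 variants by how close their protein sequences are to the canonical ones, and these 9 fall beside H3.3 or beside H3.1 and H3.2.

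All 9 lines descend from C2C12, a mouse myoblast line. Each was made as Tet-On cells in which a doxycycline (Dox)-inducible promoter drives the H3 gene with GFP at its N-terminus, so every line of both types holds the Tet-On transactivator and a GFP fusion, and the lines differ by label in the variant alone. The vectors were put in by a transposon, the cells were kept under Dox and G418, and GFP-positive cells were sorted. The sources used here do not say whether Dox was present when RNA was taken. Growing cells were kept in 20% serum and harvested before confluence, and the differentiated cells used below as a second state had 48 h in 2% horse serum after confluence. One library was made per line and state, so the lines are the replicates and every p-value below measures the spread between lines, in which the variant, the insertion and the history of a line cannot be told apart. Wild-type (WT) C2C12 cells without a transgene, also with 1 library, are given beside the results as a background and enter no test.

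Histone H3 is a core protein of the nucleosome. H3.1 and H3.2 are made in S phase and are laid down behind the replication fork by the chaperone CAF-1, whereas H3.3 is made throughout the cell cycle and enters chromatin outside replication through HIRA or through DAXX and ATRX, and it is known for its place at active genes and regulatory regions. C2C12 myoblasts divide in rich medium under Myod1 and Myf5, and on serum withdrawal they leave the cycle, switch on Myog, fuse and make the contractile apparatus.

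Transcript levels were given as FPKM (fragments per kilobase of transcript, scaled to the mapped fragments of the library) for 22489 genes. The depth of the libraries is unknown, since FPKM keeps no read count, and each library listed 14695 to 16865 genes above 0. The 10607 genes with a mean of at least 1 FPKM over the 9 libraries were tested with limma on log2(FPKM + 1), and those with an adjusted p (Benjamini-Hochberg) under 0.05 were called. A gene can pass this filter through the lines of 1 type alone, and more easily through the H3.3-type lines, which are 6 of the 9. Differences below are the mean of the 6 H3.3-type lines minus the mean of the 3 H3.1/H3.2-type lines on that log2 scale, which understates the change of genes near 1 FPKM. Myoblast markers were present in every line, where the cadherin Cdh15 lay between 33.0 and 95.2 FPKM, the muscle intermediate filament gene Des between 165 and 497 and the myogenic factor Myf5 between 25.3 and 64.9 over the 9 lines. Markers of other cells were present as well, and 4 of 12 fat, 2 of 12 bone and cartilage, 6 of 14 neural and 3 of 14 blood and endothelial genes passed the expression filter. Among them were the bone factor Runx2 (8.03 to 14.5 FPKM over the 9 lines), the monocyte receptor Cd14 (4.67 to 7.96) and the neuronal Stmn2 (19.1 to 176), while the bone matrix gene Ibsp and the blood genes Emr1 and Cd3e were listed at 0 in every line.

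Whole profiles lay close together, with Pearson's r of log10(FPKM + 1) between 0.981 and 0.997 across genes for the 36 pairs of lines. The mean r was 0.9925 over pairs of lines of the same type and 0.9893 over pairs of different types. This separation of 0.0032 had a one-sided p of 0.0238 by exact permutation of the type names over 84 arrangements, where the smallest p possible is 0.0119. It was 0.0038 without the H3.1 line (exact permutation p = 0.0714) and 0.0023 without the H3t line (exact permutation p = 0.143).

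Against this background 126 genes (1.19% of those tested) were higher in the H3.3-type lines and 33 (0.311%) were lower. At an unadjusted p below 0.05 there were 1879 genes. Among all tested genes the values of the 2 types did not overlap in the direction of H3.3-type higher for 567 (5.35%) and of H3.3-type lower for 439 (4.14%). The median difference was 0.89 over the genes called higher and -0.59 over the genes called lower, beside -0.02 over all tested genes, and 60 of the 159 called genes differed by at least 1 log2 unit. With array weights, a setting of limma that lets lines differ in precision, 7 genes were called higher and 3 lower. The count also depended on single lines. It was lowest without the H3.2 line, with 46 higher and 10 lower, and fell to 48 and 10 without H3mm13, 61 and 15 without H3t, 65 and 13 without H3mm16 and 72 and 13 without H3mm12, while leaving out H3.1 gave 177 higher and 99 lower, and leaving out H3mm7 gave 93 higher and 20 lower. Of the 46 called genes that the naming rule took up, 11 stayed called without every line in turn, namely Gsta3, Mgst1, Aldh3a1, Ncf4, Tinagl1, Wisp2, Bst2, Igfbp6, Nefl, Ccbe1 and A230070E04Rik. Calls among the 46 were lost most often without H3.2 (26 genes), H3mm13 (24) and H3t (24), and least often without H3.3 (8).

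The libraries also differed by base composition. For each gene the GC content of its longest coding transcript was taken, and the median deviation of a line from the mean of the 9 lines was followed from the lowest to the highest GC quartile. It moved by -0.68 in the H3t line, -0.18 in the H3.2 line and +0.28 in the H3.1 line, and by +0.42 in the H3.3 line and +0.36 in the H3mm7 line, with the other 4 H3.3-type lines between -0.11 and 0.01. The type difference itself ran from -0.17 in the lowest quartile to 0.11 in the highest. The median GC content was 50.3% over all tested genes with a transcript, 54.4% over those called higher and 47.8% over those called lower. After each library was levelled over GC content and transcript length, 154 genes (1.56% of 9854) were called higher and 69 (0.7%) lower, and 116 of the 154 genes called at first that had a transcript were called again. Genes taken up by the naming rule that lost their call under this correction are given below with their corrected value. Genes called only after it are not marked, and list counts below are of the deposited values unless stated. No other part of the GC trend in the results was tested.

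**Figure D1:**
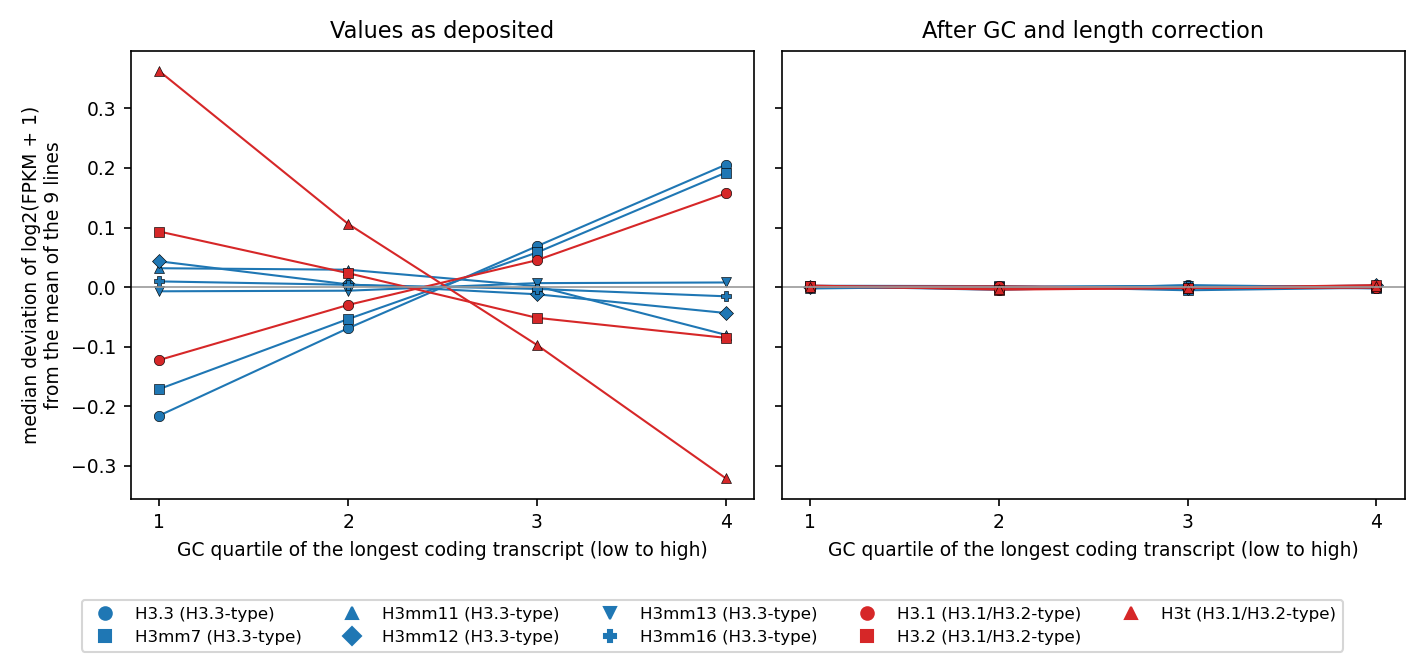
Median deviation of log2(FPKM + 1) from the mean of the 9 lines (vertical axis) in the 4 quartiles of transcript GC content (horizontal axis), one connected series per line, with the deposited values on the left and the corrected values on the right. In the deposited values the H3t line falls from 0.36 to -0.32 and the H3.3 line climbs from -0.22 to 0.21, while after the correction all lines lie near 0.

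Muscle genes were among the largest differences. Myog, the transcription factor that commits myoblasts to differentiation (chromosome 1, 136186581 to 136189124, plus strand, mm9), lay between 7.35 and 23.1 FPKM (median 10.9) in the H3.3-type lines, and was at 0.106 in the H3.1 line, 3.21 in the H3.2 line and 1.19 in the H3t line. All 6 H3.3-type lines were above all 3 others, and WT stood at 8.02, within the H3.3-type range. The difference was 2.56 ± 0.43 (SE) with a limma adjusted p of 0.0205, and the call was lost without H3mm13 or without H3t (adjusted p up to 0.102). Acta1, which encodes the actin of skeletal muscle thin filaments, lay between 39.1 and 111 FPKM (median 67.3) against 3.18 in H3.1, 10.96 in H3.2 and 24.9 in H3t. The groups did not overlap here either, but WT stood at 2.83, below every transgenic line. Its difference of 2.62 ± 0.53 (SE) had a limma adjusted p of 0.0479, which became 0.0763 after the GC correction, and of the lines left out in turn the call survived only the loss of H3t.

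Igfbp5, a secreted IGF-binding protein that is switched on early in myoblast differentiation, had the largest difference of all called genes. It lay between 40.6 and 177 FPKM (median 63.5) in the H3.3-type lines, against 2.59 in H3.1, 24.0 in H3.2 and 5.15 in H3t. The groups did not overlap, and WT at 106 was within the H3.3-type range. The difference was 3.14 ± 0.62 (SE, limma adjusted p = 0.0486), with an adjusted p of 0.0519 after the correction, and the call survived only the loss of H3.2 (adjusted p 0.011, up to 0.188 without another line).

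Other genes of the contractile apparatus and its membranes were also called higher. Tmem8c, the fusion protein myomaker, lay between 2.86 and 9.47 FPKM (median 4.14), against 0.464, 1.13 and 0.709 in H3.1, H3.2 and H3t, a difference of 1.74 ± 0.28 (SE, limma adjusted p = 0.0166). Tnnc2, fast skeletal troponin C, lay between 2.85 and 8.33 FPKM (median 4.00) against 0.570, 1.11 and 0.968, a difference of 1.49 ± 0.26 (SE, limma adjusted p = 0.0229). The H3.1 line was the lowest of the 9 for both. Jsrp1, a protein of the junctional sarcoplasmic reticulum, lay between 5.01 and 17.8 FPKM (median 5.83) against 0.621, 1.22 and 0.776, and Pdlim3, a PDZ and LIM domain protein of the Z line, between 15.4 and 71.5 (median 24.7) against 4.27, 7.39 and 4.91. Their differences were 2.21 ± 0.34 (SE, limma adjusted p = 0.0139) and 2.13 ± 0.40 (SE, limma adjusted p = 0.0325), and in neither did the groups overlap.

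The muscle contraction list, chosen to hold sarcomere, channel and receptor genes, had 22 of its 48 genes above the expression filter. Acta1, Tnnc2 and Tmem8c were called higher (1.19% of all genes were) and none lower, and 21 of the 22 differences were positive (46.5% over all tested genes). In 12 the H3.3-type lines lay wholly above the others, which 5.35% of all tested genes did. Genes low in the H3.1/H3.2-type lines, such as Tnnc2 and Tmem8c, could pass the filter through the H3.3-type lines. These counts are therefore not free of the filter. The median difference was 0.98 (0.88 after the GC correction), beside -0.02 over all genes. The mean level of the 22 genes on the log2 scale was 3.82 to 4.87 in the H3.3-type lines (median 4.14), 2.85 in H3.1, 3.28 in H3.2 and 3.31 in H3t, with WT at 3.401. The exception was Eno3, the muscle form of enolase, at 261 to 468 FPKM against 383, 406 and 383 (difference -0.05 ± 0.17, SE, limma adjusted p = 0.896), whose sign turned without the H3.3 line. In RNA from whole cultures a larger share of differentiating cells and more transcript per cell cannot be told apart. Further called muscle genes outside the list, picked out after their values were seen, were Jph2 (0.93), which ties the T-tubule to the sarcoplasmic reticulum, the calcium channel subunit Cacng1 (1.50), the M-band protein Myom2 (1.36), the sarcoglycan Sgca (1.35) and the myosin light chain kinase Mylk2 (1.05), with adjusted p between 0.0139 and 0.0376 by limma.

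The factors above Myog in the myogenic pathway did not pass the test. Myod1, the factor that defines the lineage, lay between 26.7 and 110 FPKM (median 42.0) in the H3.3-type lines against 1.61 in H3.1, 25.1 in H3.2 and 11.7 in H3t, with WT at 34.7. The groups did not overlap, yet H3.2 was just under the lowest H3.3-type line, and the difference of 2.30 ± 0.73 (SE) had a limma adjusted p of 0.160. Myf5 differed by -0.18 (limma adjusted p = 0.756). Of the 30 tested genes in the list of myogenic regulators and myoblast genes only Myog was called (1.19% of all genes were called higher). Of the differences 17 were positive (46.5% over all tested genes), and the median was 0.10.

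**Figure D2:**
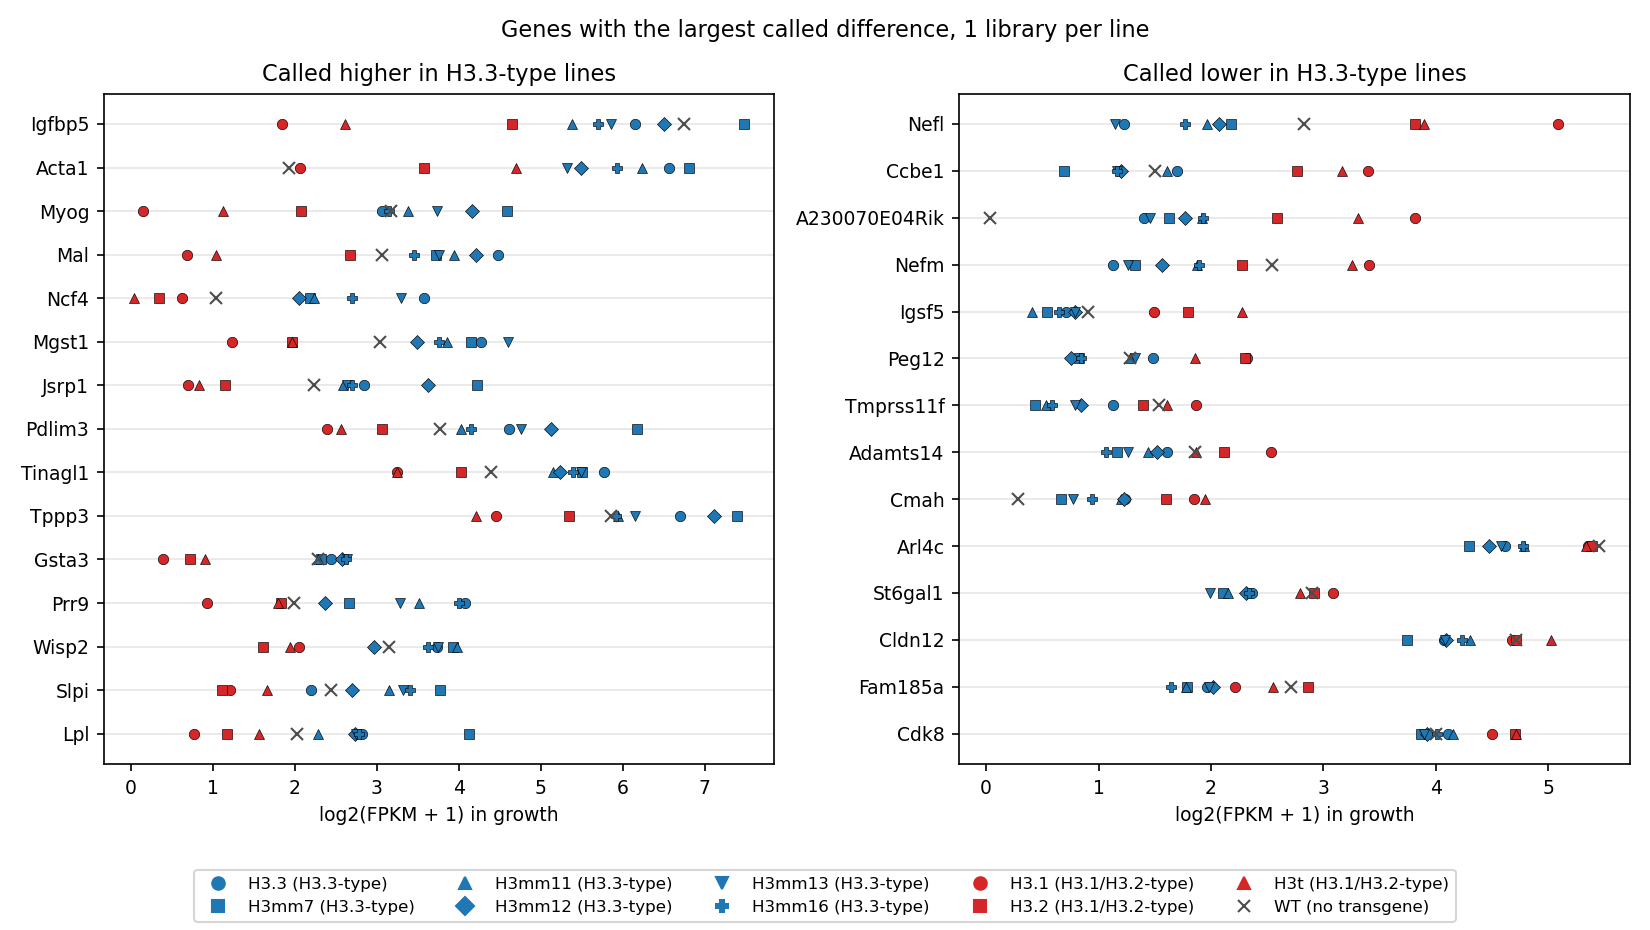
The genes with the largest called differences, up to 15 in each direction, with log2(FPKM + 1) in growth on the horizontal axis and 1 point per library. Points of the 6 H3.3-type lines are blue, those of the 3 H3.1/H3.2-type lines red and WT is a cross, and in every row the blue and red points do not overlap.

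Enzymes of glutathione and xenobiotic metabolism formed the other group of called genes. Gsta3, an alpha-class glutathione transferase (chromosome 1, 21230670 to 21255442, plus strand, mm9), had the smallest adjusted p of the named genes. It lay between 3.86 and 5.201 FPKM (median 4.70) in the H3.3-type lines, against 0.313 in H3.1, 0.659 in H3.2 and 0.875 in H3t. The spread within each type was small beside the gap, and WT at 3.87 stood at the lower edge of the H3.3-type range. The difference was 1.80 ± 0.14 (SE, limma adjusted p = 0.000492), and the adjusted p stayed at or under 0.0031 without each line in turn. Mgst1, the microsomal glutathione transferase, lay between 10.3 and 23.4 FPKM (median 15.1) against 1.35, 2.90 and 2.92 in H3.1, H3.2 and H3t, with WT between the types at 7.22. Its difference was 2.30 ± 0.24 (SE, limma adjusted p = 0.00464).

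The list of glutathione genes and targets of NRF2, the transcription factor that answers oxidative and electrophilic stress, had 29 tested genes. Of these 5 were called higher (1.19% of all genes were), none lower, and 25 differences were positive (46.5% over all tested genes). The H3.3-type lines lay wholly above the others in 8 (5.35% of all genes did), and the median was 0.39 (0.32 after the GC correction). Gsta3, below 1 FPKM in the H3.1/H3.2-type lines, passed the filter through the H3.3-type lines, so these counts are not free of it either. Nqo1, a quinone reductase, lay between 106 and 262 FPKM (median 192) against 64.5, 81.2 and 98.7 in H3.1, H3.2 and H3t, a difference of 1.18 ± 0.24 (SE, limma adjusted p = 0.0356). Aldh3a1, an aldehyde dehydrogenase, lay between 31.7 and 41.3 FPKM (median 35.4) against 6.22, 17.1 and 13.9, a difference of 1.55 ± 0.24 (SE, limma adjusted p = 0.0139). In both genes every H3.3-type line was above every H3.1/H3.2-type line. The other called members were the aldehyde dehydrogenase Aldh3b1 (1.39, limma adjusted p = 0.0334) and the mu-class transferase Gstm2 (0.91, limma adjusted p = 0.0261), which belongs to a family of close paralogs so that its reads may be shared with them. Gsto1, the omega-class transferase, stood at 170.0 to 231 FPKM against 192, 218 and 239 (difference -0.14, limma adjusted p = 0.577).

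The mean level of the 29 genes was 5.94 to 6.29 on the log2 scale in the H3.3-type lines, 5.66 in H3.1, 5.62 in H3.2, 5.56 in H3t and 5.77 in WT. Genes with related roles that were picked out after their values were seen and were also called higher included the glutathione transferase Mgst2 (1.16), the carbonyl reductase Cbr1 (0.63), the prostaglandin reductase Ptgr1 (0.68), the autophagy receptor Sqstm1 (0.61) and the ferritin heavy chain Fth1 (0.54), with limma adjusted p between 0.0181 and 0.0258. Fth1 is among the most abundant transcripts of these cells, at 3993 to 4990.0 FPKM in the H3.3-type lines and 3223, 3371 and 3174 in H3.1, H3.2 and H3t.

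Because the leading genes of both groups are classical targets of known factors, their promoters were searched on both strands for the core of the antioxidant response element bound by NRF2 (TGACNNNGC), for an E-box of the form bound by myogenic factors (CAGCTG) and for the site of the muscle factor MEF2 (CTA and TAG with any 4 bases between them). The fixed letters of each motif differ from those of the others, but matches can lie across one another. The windows were 300 bases of RefSeq sequence per start site on GRCm38.p6, 250 before it and 50 after, and 7961 of the 10607 tested genes were matched by symbol. The 3 stretches shown hold a match in genes with the largest differences of each group, with the matching bases in capitals. That of Gsta3 lies at chr1:21240434-21240502 on the plus strand with the match starting 121 bases before the start site, that of Mgst1 at chr6:138140441-138140509 on the plus strand with the match (read on the opposite strand) starting 56 bases before it, and that of Acta1 at chr8:123894961-123895025 on the minus strand with the match starting 221 bases before it.
Gsta3: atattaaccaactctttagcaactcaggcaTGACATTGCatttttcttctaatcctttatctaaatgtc
Mgst1: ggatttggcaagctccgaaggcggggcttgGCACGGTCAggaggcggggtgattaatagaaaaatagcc
Acta1: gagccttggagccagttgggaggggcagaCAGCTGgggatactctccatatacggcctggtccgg

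The antioxidant core was found in 9 of the 24 matched genes of the glutathione and NRF2 list (37.5%), in 16 of the 87 matched genes called higher (18.4%) and in 17.2% of all matched tested genes. Of the called genes of that list only Gsta3 was among the 9. The E-box was found in 10 of the 17 matched genes of the muscle contraction list (58.8%), among them Acta1, the alkali light chain Myl1 and the acetylcholine receptor subunit Chrna1, in 16 of the 87 genes called higher (18.4%) and in 17.3% of all matched tested genes. Of the called genes of the muscle contraction list only Acta1 was among the 10. The 26 matched genes called lower held the antioxidant core in 5 (19.2%) and the E-box in 6 (23.1%). The MEF2 site was found in 1 of the 17 muscle contraction genes (5.88%), 3 of the 87 called higher (3.45%), 2 of the 26 called lower (7.69%), none of the 24 glutathione and NRF2 genes and 3.57% of all matched tested genes. So the genes called higher as a whole held all 3 motifs at close to the share of all tested genes. These matches describe letters in a window and not bound sites.

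**Figure D3:**
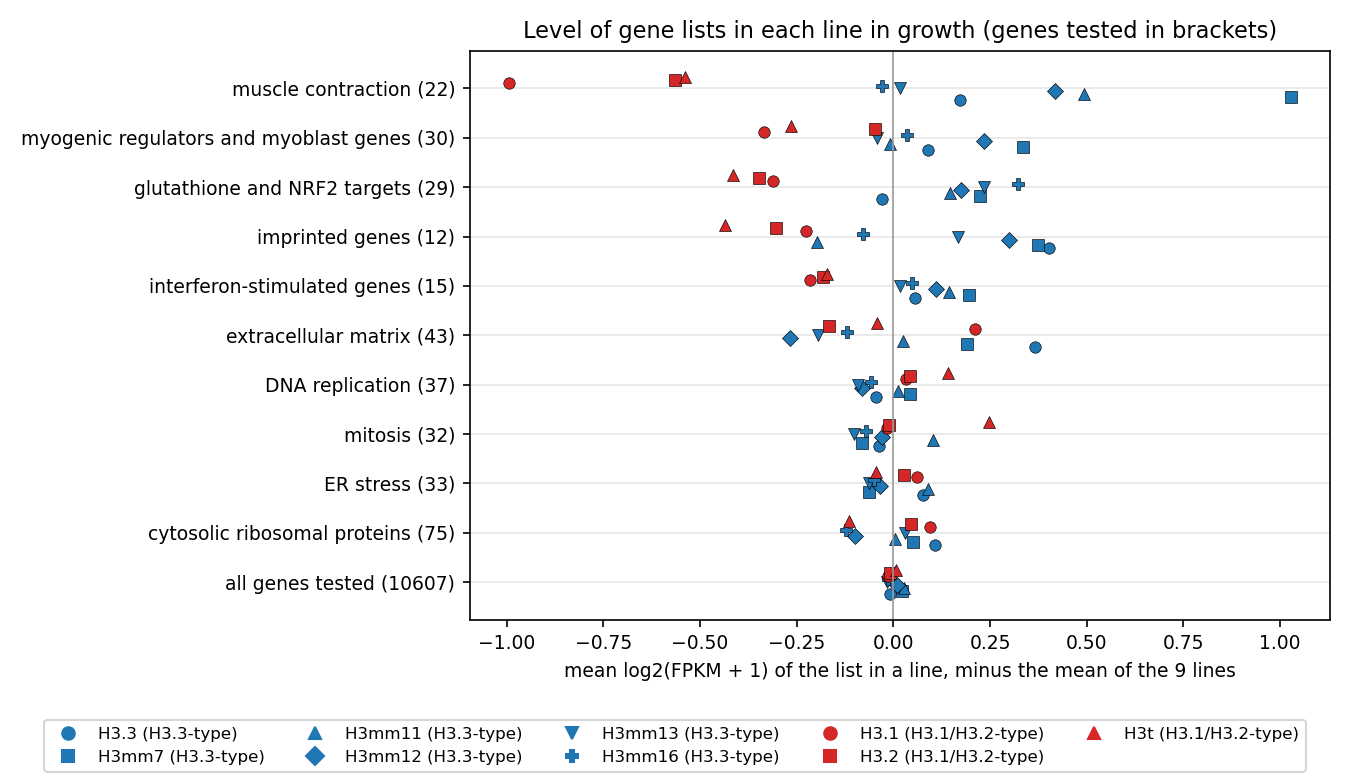
Mean log2(FPKM + 1) of the tested genes of a list in each line, less the mean of the 9 lines (horizontal axis), for 10 lists and for all genes tested, with the number of genes in brackets and 1 point per line (blue H3.3-type, red H3.1/H3.2-type). The types are apart in the muscle contraction and glutathione lists, apart by a smaller gap in the interferon list, and intermixed in ER stress and the ribosomal proteins. In the myogenic and imprinted lists the nearest lines of the types are almost level. Before the mean was taken off, H3mm13 was at 4.685 and H3.2 at 4.680 in the myogenic list, and H3mm11 at 3.48 and H3.1 at 3.45 in the imprinted list.

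Tinagl1, Wisp2 and Slpi, which encode secreted proteins, were also among the 15 genes with the largest differences. Tinagl1, a matrix glycoprotein, lay between 34.5 and 53.6 FPKM (median 42.5) in the H3.3-type lines against 8.48 in H3.1, 15.3 in H3.2 and 8.48 in H3t, a difference of 1.92 ± 0.19 (SE, limma adjusted p = 0.00352). Wisp2, a CCN-family secreted protein, lay between 6.82 and 14.8 FPKM (median 12.4) against 3.15, 2.06 and 2.83, a difference of 1.80 ± 0.20 (SE, limma adjusted p = 0.00699). Slpi, a secreted protease inhibitor, lay between 3.58 and 12.7 FPKM (median 8.42) against 1.33, 1.16 and 2.17, a difference of 1.76 ± 0.29 (SE, limma adjusted p = 0.0181). In all 3 the types were fully apart and WT stood between the H3.1/H3.2-type lines and the H3.3-type median, at 20.1, 7.86 and 4.45.

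Of 43 tested extracellular matrix genes 3 were called higher, beside 1.19% of all genes, and none lower, and the median difference was 0.10. After the GC correction 2 were called higher and 2 lower. At an unadjusted p below 0.05 in limma the list had 8 genes higher and 11 lower. The called genes were the basement membrane proteins Nid2 (1.24, limma adjusted p = 0.025) and Col18a1 (1.22, limma adjusted p = 0.0427) and the proteoglycan Dcn (1.36, limma adjusted p = 0.0289). Dcn, below 1 FPKM in the H3.1/H3.2-type lines, passed the filter through the H3.3-type lines, so the count called higher is not free of it. Col18a1 was the only one of the 159 called genes whose types overlapped, since H3t at 8.90 FPKM was above the lowest H3.3-type line at 8.45, and it had an adjusted p of 0.0863 after the GC correction. Col1a1, the main chain of fibrillar collagen, ran the other way with 1.95 to 12.2 FPKM (median 3.71) in the H3.3-type lines against 104 in H3.1, 70.4 in H3.2 and only 6.39 in H3t, and its difference of -2.95 ± 0.84 (SE) did not pass (limma adjusted p = 0.133).

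The IGF axis, which drives growth and differentiation of myoblasts, had 3 of 13 tested genes called higher (1.19% of all genes were) and none lower, with a median of 0.11. Besides Igfbp5 these were Igf2, a growth factor expressed from the paternal allele, and Igfbp6, which binds it. Igf2 lay between 1.69 and 5.61 FPKM (median 3.08) against 0.166, 0.0326 and 0.634 in H3.1, H3.2 and H3t, a difference of 1.68 ± 0.29 (SE, limma adjusted p = 0.021). Being below 1 FPKM in the H3.1/H3.2-type lines, Igf2 passed the filter through the H3.3-type lines, so the count of this list is not free of it. Igfbp6 lay between 123 and 149 FPKM (median 140.2) against 66.1, 83.6 and 78.5, a difference of 0.86 ± 0.11 (SE, limma adjusted p = 0.00894, and 0.0519 after the GC correction). Neither gene overlapped between types. Igfbp2 lay on both sides, at 227 to 497 FPKM against 649, 478 and 184 (difference -0.18, limma adjusted p = 0.837), and its sign turned without the H3.1 line.

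Of 12 tested imprinted genes Igf2 and Dcn were called higher (1.19% of all genes were), Peg12 was called lower (0.311% of all) and the median was 0.66. Igf2 and Dcn, both below 1 FPKM in the H3.1/H3.2-type lines, passed the filter through the H3.3-type lines. The count called higher is therefore not free of the filter. H19, the noncoding RNA beside Igf2, lay between 65.4 and 799 FPKM (median 185) against 27.6, 56.6 and 29.4, and its difference of 2.66 ± 0.74 (SE) did not pass (limma adjusted p = 0.121). Peg12 lay between 0.692 and 1.80 FPKM (median 1.11) against 4.01, 3.95 and 2.62, a difference of -1.08 ± 0.19 (SE, limma adjusted p = 0.0248).

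Other called genes act in lipid use and innate immunity. Lpl, the lipoprotein lipase, lay between 3.89 and 16.4 FPKM (median 5.78) against 0.708, 1.25 and 1.97 in H3.1, H3.2 and H3t, a difference of 1.74 ± 0.33 (SE, limma adjusted p = 0.0309). It was the only called gene of 4 tested fat cell markers, beside 1.19% of all genes called higher. The summed FPKM of the 12 fat markers was 29.97 to 48.2 in the H3.3-type lines and 31.8, 32.8 and 19.2 in the others. Ncf4, a cytosolic subunit of the phagocyte NADPH oxidase, lay between 3.13 and 10.9 FPKM (median 4.60) against 0.549, 0.271 and 0.0321, a difference of 2.33 ± 0.33 (SE, limma adjusted p = 0.0139). Bst2, the antiviral tetherin, lay between 5.504 and 9.24 FPKM (median 6.95) against 2.09, 3.68 and 2.11, a difference of 1.22 ± 0.18 (SE, limma adjusted p = 0.0139). Bst2 was the only called gene of 15 tested interferon-stimulated genes (1.19% of all genes were called higher), whose median was 0.09. Of the 15 differences 13 were positive (46.5% over all tested genes), and in 5 the H3.3-type lines lay wholly above the others, which 5.35% of all tested genes did. After the GC correction 2 genes of this list were called higher. The summed blood and endothelial markers were 9.92 to 16.6 FPKM in the H3.3-type lines and 12.3, 11.1 and 9.94 in the others.

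Picked out after their values were seen, the fatty acid genes Fabp3 (1.59), Cpt1a (0.54) and Acaa2 (0.44), the cytosolic DNA sensor adaptor Tmem173 (0.96), the necroptosis kinase Ripk3 (0.90), the pore-forming gasdermin Gsdmd (1.0999) and the galectins Lgals2 (1.35), Lgals3 (0.58) and Lgals9 (0.61) were also called higher, with limma adjusted p between 0.0109 and 0.0389. Single genes called in other lists were the small heat shock protein Cryab at 190.4 to 217 FPKM against 159, 147 and 118 (0.52, limma adjusted p = 0.0445) and the hypoxia-responsive Ndrg1 at 37.8 to 54.3 against 27.4, 30.2 and 25.4 (0.74, limma adjusted p = 0.0181). The remaining genes among the 15 with the largest differences were the myelin and lymphocyte proteolipid Mal (2.46), the tubulin-binding Tppp3 (1.87) and Prr9 (1.80).

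Among the genes called lower the largest difference was that of Nefl. This light neurofilament chain (chromosome 14, 68701920 to 68707152, plus strand, mm9) lay between 1.22 and 3.52 FPKM (median 2.66) in the H3.3-type lines and stood at 33.1 in H3.1, 13.1 in H3.2 and 13.9 in H3t. WT at 6.11 was between the types. The difference was -2.54 ± 0.31 (SE, limma adjusted p = 0.00894). Nefm, the medium chain encoded next to it, lay between 1.18 and 2.72 FPKM (median 1.73) against 9.58, 3.84 and 8.53, with WT at 4.82, a difference of -1.47 ± 0.26 (SE, limma adjusted p = 0.0229). These were the 2 called genes of 6 tested neural markers, beside 0.311% of all genes called lower. Of the 6 differences 3 were negative, and the neural marker sum was 163 to 295 FPKM in the H3.3-type lines and 176, 243 and 300.5 in the others.

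Ccbe1, a secreted protein needed for lymphatic growth, lay between 0.620 and 2.24 FPKM (median 1.27) against 9.54 in H3.1, 5.79 in H3.2 and 7.98 in H3t. The types were fully apart and WT at 1.84 was within the H3.3-type range. The difference was -1.85 ± 0.22 (SE, limma adjusted p = 0.00742). Arl4c, a small GTPase that shapes membranes and actin, was even within each type, at 18.7 to 26.6 FPKM (median 23.2) against 39.8, 40.9 and 39.4, with WT at 42.9, a difference of -0.77 ± 0.12 (SE, limma adjusted p = 0.0139).

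Among the 15 largest lower genes, 2 act on sialic acid, the hydroxylase Cmah at 0.590 to 1.36 FPKM (median 1.11) against 2.60, 2.03 and 2.86, and the sialyltransferase St6gal1 at 2.98 to 4.14 (median 3.70) against 7.50, 6.56 and 5.94. Their differences were -0.79 (limma adjusted p = 0.0356, and 0.0879 after the GC correction) and -0.72 (limma adjusted p = 0.0153). Runx2, the master factor of bone, was called lower at 8.03 to 10.2 FPKM against 12.2, 14.5 and 14.5 (-0.59, limma adjusted p = 0.0248), and Lef1, a nuclear factor of Wnt signalling, at 1.65 to 2.05 against 3.103, 3.104 and 3.06 (-0.52, limma adjusted p = 0.0286). Others of the 15 were the transcript A230070E04Rik (-1.55), the junctional protein Igsf5 (-1.21), the protease Tmprss11f (-0.91, limma adjusted p = 0.0286, and 0.179 after the GC correction), the procollagen protease Adamts14 (-0.83), the claudin Cldn12 (-0.72), Fam185a (-0.68, limma adjusted p = 0.0482, and 0.0532 after the GC correction) and the Mediator kinase Cdk8 (-0.65).

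Chromosome 5 held 13 of the 30 genes called lower that could be placed. Over the 646 tested genes of this chromosome the median difference was -0.19 (-0.17 after the GC correction), and in 130 of them (20.1%) the H3.3-type lines lay wholly below the others, which 4.14% of all tested genes did. The median deviation of the chromosome from the mean of the lines was +0.22 in H3.1, +0.19 in H3.2 and +0.09 in H3.3, and -0.07 in H3t, with the other 5 H3.3-type lines between -0.11 and -0.04. So H3t lay with the H3.3-type lines and H3.3 towards the others. In the differentiated libraries of the same lines the median was again -0.19. The 13 genes were Cdk8, Cldn12, Fam185a and Tmprss11f of those above (the last 2 not called after the GC correction) and, with smaller differences, the cohesin regulators Pds5a (-0.45) and Pds5b (-0.51), the origin recognition subunit Orc5 (-0.49), the replication kinase subunit Dbf4 (-0.41), the nucleoporin Nup54 (-0.46), the Polycomb-related Pcgf3 (-0.52), the pseudouridine synthase Pus7 (-0.57), the phosphatase Pptc7 (-0.55) and the folate enzyme Mthfd2l (-0.54). Without the genes of chromosome 5, a choice made after seeing the data, 117 genes were called higher and 20 lower.

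Chromosome 15 ran the other way, with a median of 0.12 (0.09 after the GC correction) over 422 tested genes and 15 of the 123 placed genes called higher, among them Ncf4, Igfbp6, Ndrg1, Gsdmd and Lgals2. Of its tested genes 3.56% were called higher, beside 1.19% of all, and in 13.5% the H3.3-type lines lay wholly above the others, beside 5.35% of all. The median deviation of chromosome 15 was -0.13 in H3.1, -0.08 in H3.2 and -0.07 in H3t, and 0.01 to 0.06 in the H3.3-type lines. After the GC correction it was -0.17 in H3.1, -0.05 in H3.2 and +0.03 in H3t. H3.3 and H3mm7 were then at -0.04, below H3t, and the remaining H3.3-type lines between 0.03 and 0.07. The medians of the other chromosomes lay between -0.10 and 0.03. What part these chromosome shifts have in the differences of single genes was not tested.

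**Figure D4:**
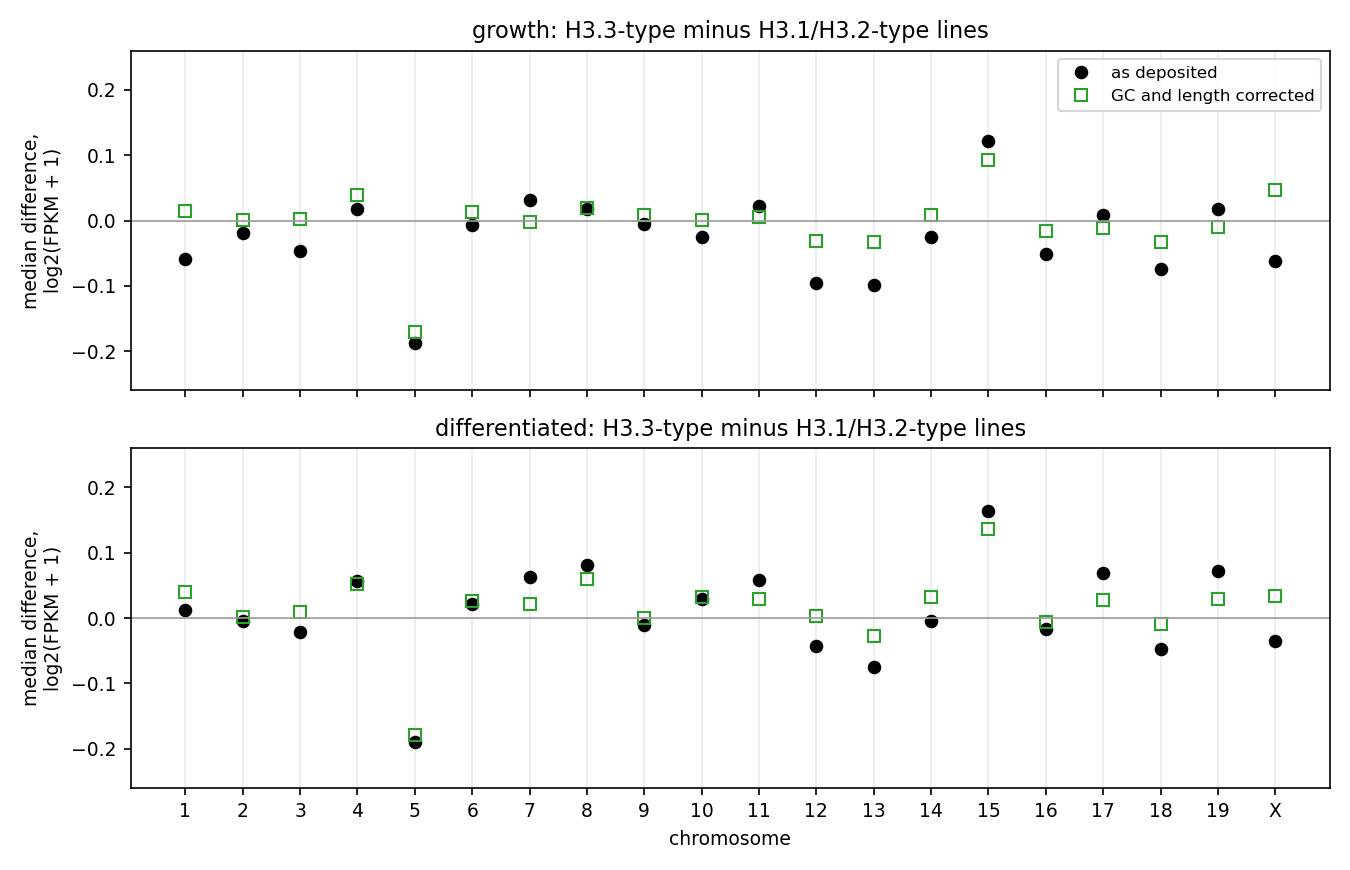
Median difference in log2(FPKM + 1), H3.3-type minus H3.1/H3.2-type lines (vertical axis), over the tested genes of each chromosome (horizontal axis), in growth above and after differentiation below, with deposited values as filled circles and GC-corrected values as open squares. Chromosome 5 is the lowest in both states at -0.19, and chromosome 15 the highest at 0.12 in growth and 0.16 after differentiation.

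Genes that handle H3 itself held no called gene. Of 23 tested H3 chaperones none was called, and the median difference was -0.06. Of the 23 differences 15 were negative, and at an unadjusted p below 0.05 in limma 4 genes were lower and 0 higher (875 and 1004 of all tested genes). The largest negative difference was that of Npm1, a nucleolar chaperone, at 677 to 996 FPKM (median 806) against 785, 1202 and 1653 (-0.51 ± 0.20, SE, limma adjusted p = 0.223). The largest positive one was that of Tonsl, which binds newly made histones at forks, at 8.39 to 13.5 against 11.3, 8.31 and 8.21 (0.18 ± 0.15, SE, limma adjusted p = 0.551). None of 35 tested genes of histone methylation and Polycomb was called (median -0.07). Cenpa, the centromeric H3 variant, lay between 66.3 and 83.7 FPKM against 93.2, 90.1 and 83.9 (-0.25 ± 0.10, SE, limma adjusted p = 0.223), with H3t only just above the highest H3.3-type line. Cenpa lies on chromosome 5, whose tested genes had a median difference of -0.19. Variants of H2A and H1 (H2afx, H2afz, H2afy, H2afv, H2afj, H1f0 and H1fx), picked out after their values were seen, were not called either, with limma adjusted p between 0.195 and 0.837. The replication-dependent histone genes were not analysed here.

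The transcript Gm12657 matches the H3mm12 gene. It stood at 274 FPKM in the H3mm12 line, 71.7 in H3mm13, 44.3 in H3mm16 and 16.8 in H3mm11, and between 0.175 and 0.908 in the remaining lines, with 0.231 in WT. Several H3mm genes are close copies of H3f3a, which encodes H3.3, so the reads of one can be counted to another and these values are uncertain. The H3mm12 line also carries the H3mm12 coding sequence in its transgene. Reads of the transgene and of the genomic gene cannot be told apart in these values.

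Proliferation lists did not hold a called gene. The median difference was -0.11 over 37 tested DNA replication genes and -0.13 over 32 mitosis genes, of which 27 and 24 were negative, and after the GC correction the medians were -0.06 and -0.04. In the replication list the largest difference was that of the primase subunit Prim1, at 46.7 to 56.5 FPKM against 54.6, 60.9 and 80.5 (-0.38, limma adjusted p = 0.153). In the mitosis list it was that of the kinetochore motor Cenpe, at 15.4 to 22.3 against 19.6, 22.3 and 31.1 (-0.31, limma adjusted p = 0.304). H3t had the highest values of both. In all, 13 of 29 lists with tested genes held at least 1 called gene. The 16 without any also included the ribosomal proteins (median 0.00 over 75 genes), the proteasome (-0.02 over 35), ER stress (-0.03 over 33), ATF4 targets (-0.07 over 35), cholesterol synthesis (0.07 over 28), p53 targets and cell cycle inhibitors (0.07 over 26), immediate early genes (0.04 over 29), Hox genes (0.04 over 20), cytokines (0.04 over 14) and Notch genes (0.17 over 11). After the GC correction the p53 and cell cycle inhibitor list and the immediate early list each held 1 gene called higher. In the serum response list Myl9, a smooth muscle myosin light chain, lay at 68.3 to 130.4 FPKM against 5.84, 25.3 and 48.0 without passing (2.09 ± 0.50, SE, limma adjusted p = 0.081).

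Against untagged cells, the WT value was nearer to the H3.3-type mean than to the H3.1/H3.2-type mean for 77 of the 126 genes called higher and 15 of the 33 called lower, and for 45.0% of all tested genes. The WT library stood apart from all 9 lines by other genes, with the cytosolic ribosomal protein genes at a mean of 5.13 on the log2 scale against 10.4 to 10.6, so these counts describe 1 library and were not tested.

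The differentiated libraries of the same 9 lines, which the growth comparison does not use, gave 1 called gene among 10878 tested (0.00919%), with 1294 genes at an unadjusted p below 0.05 in limma. It was Cd80, a costimulatory ligand of T cells, named here after its values were seen. After differentiation Cd80 lay between 18.4 and 22.1 FPKM (median 20.5) in the H3.3-type lines against 53.5 in H3.1, 49.0 in H3.2 and 55.9 in H3t, with WT at 36.0 between them. The difference was -1.33 ± 0.12 (SE, limma adjusted p = 0.00508), whereas in growth Cd80 overlapped between types (-0.20, limma adjusted p = 0.552).

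Most genes called in growth leaned the same way after differentiation. Of the 126 called higher, 122 were expressed enough to test, 88 of them (72.1%) kept their direction, and the median difference went from 0.89 to 0.41. Of the 33 called lower 25 could be tested, 23 (92%) kept their direction, and the median went from -0.54 to -0.29. Over all genes tested in both states 60.6% had the same direction, and the lines are the same in both, so the 2 states are not independent in what belongs to a line. None of the called genes passed the test again. The types did not overlap, with H3.3-type higher, for 12 of the 122 (3.19% of all genes tested after differentiation) and, with H3.3-type lower, for 3 of the 25 (2.86% of all).

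Gsta3 lay between 2.23 and 25.6 FPKM (median 9.80) after differentiation against 0.622, 0.484 and 1.60 in H3.1, H3.2 and H3t, still without overlap (2.46, limma adjusted p = 0.269). Lpl lay between 9.05 and 34.4 (median 19.5) against 4.71, 1.81 and 5.84, also without overlap (2.04, limma adjusted p = 0.236). Among the H3.3-type lines Gsta3 ran over a wider range than in growth. Of the leading growth genes Myog, Acta1 and Igfbp5, none was free of overlap between types in this state. Myog was at 347 to 1151 FPKM against 333, 929.7 and 329 (0.36, limma adjusted p = 0.762), Acta1 at 1432 to 7352 against 1463, 2934 and 1436 (0.83, limma adjusted p = 0.589) and Igfbp5 at 104 to 682 against 335, 264 and 282 (0.32, limma adjusted p = 0.83). Pdlim3 was at 45.4 to 89.5 FPKM against 63.6, 52.98 and 78.6, and the differences of Tppp3 (-0.62, limma adjusted p = 0.559) and Nid2 (-0.81, limma adjusted p = 0.636) had the opposite sign to growth without passing.

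**Figure D5:**
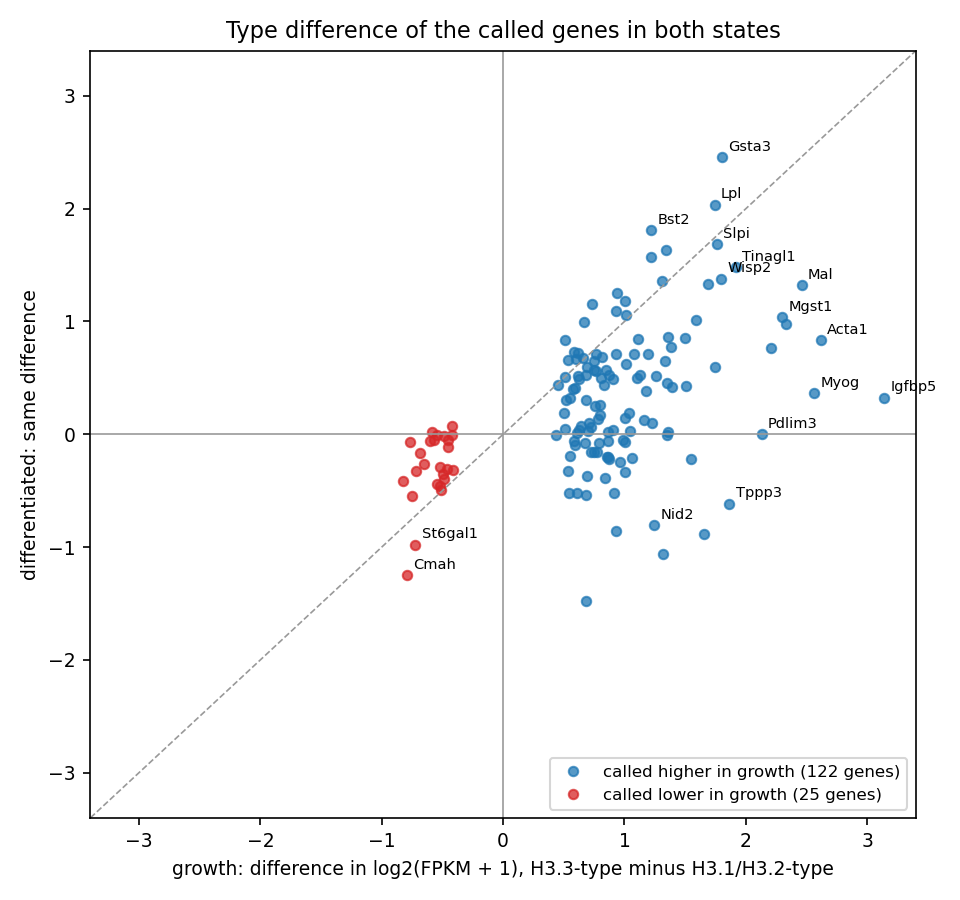
Difference in log2(FPKM + 1), H3.3-type minus H3.1/H3.2-type lines, in growth (horizontal axis) and after differentiation (vertical axis), 1 point per gene called in growth, blue for the 122 called higher and red for the 25 called lower that could be tested in both states, with the diagonal dashed. Most points lie between the diagonal and the horizontal line at 0, and Gsta3 and Lpl lie above the diagonal.

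Whether the type difference changed from growth to differentiation was tested on the change within each line, and 4 of 10931 genes (0.0366%) passed, with 1789 at an unadjusted p below 0.05. The lymphocyte antigen 6 genes Ly6c1, Ly6a and Ly6c2, which encode small GPI-anchored surface proteins (Ly6a is the stem cell antigen Sca-1), behaved alike. Ly6c1 changed on differentiation by +1.92 in H3.1, +1.55 in H3.2 and +2.31 in H3t on the log2 scale, and by -1.92 to -0.38 in the H3.3-type lines. Ly6a changed by +2.21, +1.13 and +2.46, and by -1.61 to -0.26 in the H3.3-type lines. No line of one type reached the range of the other. The differences between the types' changes were -2.98 ± 0.36 for Ly6c1, -2.79 ± 0.33 for Ly6a and -2.23 ± 0.25 for Ly6c2 (SE, limma adjusted p = 0.0194 for each).

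In FPKM, Ly6a went from 399 to 867 (median 566) in growth to 185 to 527 (median 327) after differentiation in the H3.3-type lines, and from 319, 349 and 200.0 to 1480.5, 766 and 1107 in H3.1, H3.2 and H3t. In growth alone it was higher in the H3.3-type lines without passing (1.02, limma adjusted p = 0.0638). Ly6 genes are close paralogs that lie side by side on chromosome 15, and reads may be split between Ly6c1 and Ly6c2. The fourth gene, Galnt7, a transferase of O-linked glycan synthesis, changed by -0.85 to -0.71 in the H3.1/H3.2-type lines and by -0.08 to 0.28 in the H3.3-type lines (difference 0.87 ± 0.11, SE, limma adjusted p = 0.0279). No gene passed this test without the H3.1 line or without the H3t line, where 1120 and 859 were at an unadjusted p below 0.05 in limma, and 60 passed without the H3.2 line.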

How the data were processed

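The authors aligned the mRNA-Seq reads to mm9 and deposited FPKM values per gene. Per the submitters' processing notes the tools include TopHat2 2.0.8, Cufflinks 2.0.1 and Cuffdiff. How WT reads were mapped, and the depth, are not given in the sources used here.

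From the deposited FPKM, log2(FPKM + 1) was fitted per gene with limma 3.58.1 in R 4.3.3 (trend and robust empirical Bayes, no covariate, two-sided), for genes with a mean of at least 1 FPKM, 6 lines against 3, with Benjamini-Hochberg adjustment over all genes tested. Growth, the differentiated state and the change within a line were fitted apart. Genes named were up to 15 per direction with the largest difference among called genes whose types did not overlap, the H3 genes, the called and most extreme genes of each list, and genes called between states. Members and lists were chosen with earlier results of these data known, and exceptions are marked where they stand. GC content and length came from the longest GENCODE vM1 coding transcript (92.9% of tested genes), and the correction was a loess fit per library (span 0.3, 3 rounds). The fit was tested on simulated data. Alternatives were other pseudocounts, filters, scalings, fit options and each line left out. Authors' peak and other assay files were not used, and a few genes are not reported here.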

Additional observations from a re-analysis of the deposited data

Results flagged for a closer look

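In 6 of 94 named genes 1 of the 6 H3.3-type lines lay far from the other 5 in growth by Dixon's criterion, which chance meets in about 1 of 20 groups. Wisp2 was low in H3mm12 at 6.82 FPKM, and Lpl was high in H3mm7 at 16.4 FPKM. Prim1 was high in H3mm11 at 56.5 FPKM, and Slc7a1, a cationic amino acid transporter, was high in H3.3 at 22.1 FPKM. The ribosomal protein genes Rps27 and Rpl34 stood apart in H3mm7, at 40.6 and 2463 FPKM, and H3t had like values of 101 and 2044 FPKM, while the remaining lines were at 3431 to 4206 for Rps27 and 60.6 to 113 for Rpl34. Both ribosomal genes have many near-identical processed copies, so their values are uncertain.

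For 4 genes the type difference itself differed between growth and differentiation by the limma test of the change within lines. The difference of the changes was 0.87 for Galnt7 (adjusted p = 0.0279), and -2.98 for Ly6c1, -2.79 for Ly6a and -2.23 for Ly6c2 (adjusted p = 0.0194 each), with the direction the same in all lines of a type for all but Ly6c2 and Galnt7, whose changes in the H3.3-type lines lay on both sides of 0.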

How the results depend on the processing

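In growth, 126 genes were called higher and 33 lower, and the numbers moved by more than 1.5 times in at least one direction under these settings. A mean of at least 5 FPKM gave 68 and 13, no filter 55 and 16, array weights in limma 7 and 3, and a difference of at least 1 log2 unit 54 and 6. With each line left out in turn the counts ran from 46 to 177 higher and from 10 to 99 lower. Of the settings chosen after seeing the data, the GC and length correction gave 154 and 69, this correction without the H3t line 59 and 27, and leaving out chromosome 5 gave 117 and 20. The other scalings and pseudocounts kept both counts within that factor. After differentiation 0 to 4 genes were called without each line in turn (1013 at an unadjusted p below 0.05 in limma where it was 0) and 2 with the GC correction. Between states 10 were called after quantile normalization and 0 to 60 without each line in turn. The profile separation ran from 0.0023 to 0.0045 over the lines left out. Of the 46 called genes named, 11 were called without every line in turn, and 38 of the 45 with a GC value were called after the correction. Of 2255 alternative values of named genes 14 reversed in sign, none of a called gene. With each line left out in turn the differences ran from -0.0061 to 0.29 for Cdt1, -0.12 to 0.051 for Eno3, -0.71 to 0.19 for Igfbp2, -1.21 to 1.66 for Rps27, -1.72 to 0.58 for Rpl34, -0.096 to 1.39 for Stmn2 and -0.056 to 0.36 for Cdh5. The GC correction without H3t gave -0.0048 for Cdt1, -1.302 for Rps27 and 0.47 for Rpl34, the GC correction 0.0036 for Psmc6, and array weights 0.081 for Eno3 and -0.010 for Cdh5. The cause was not tested. No paired analysis was possible because each line is its own replicate, and the test between states is within lines. The unknown depth limits the precision of genes near 1 FPKM.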
